A study of Mus musculus with 12 samples.

Results

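The genes described here are 9 genes of T-cell homing and of the naive state: the chemokine receptor Ccr7, the sphingosine-1-phosphate receptor S1pr1, the transcription factors Klf2, Klf3 and Foxo1, the hyaluronan receptor Cd44 and the integrin chains Itga4, Itgb7 and Itgae. They were picked by gene name, with earlier results of these data known, and all 9 were found among the 38924 gene IDs with counts. All 9 also passed the filter on low counts that left 13811 genes for testing. RNA sequencing was carried out on CD4+ T cells from spleens of C57BL/6 mice aged 8 to 12 weeks, in 4 groups of 3 libraries described as biological replicates. The groups were WT T cells with DMSO, WT T cells with CMA, STINGgt/gt T cells with DMSO and STINGgt/gt T cells with CMA. STINGgt/gt (Goldenticket) mice carry a missense mutation of Tmem173 that leaves no functional STING protein, and the labels call these samples a STING KO. A missense mutation need not alter the level of an mRNA, so Tmem173 counts do not check the genotype labels. CMA (10-carboxymethyl-9-acridanone) is a small molecule that activates mouse STING, and DMSO is its solvent. In every group, sorted naive T cells had been stimulated through CD3 and CD28 for 2 days, left without antibody for 1 day and then treated for 16 h. The cells were therefore recently activated T cells in culture, and the libraries measured mRNA only, not receptor at the cell surface or migration. The question put to the data was how these genes responded to STING activation and whether that response needed functional STING.

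A naive T cell enters a lymph node with the help of the integrin LFA-1 and CCR7, which reads the chemokines CCL19 and CCL21, and it leaves along a gradient of sphingosine-1-phosphate (S1P) sensed by S1PR1. FOXO1 and KLF2 are transcription factors known to maintain S1pr1 and Ccr7 in quiescent T cells, and activation through the T-cell receptor and PI3K-AKT signalling lowers their activity. Activated and memory T cells carry more CD44 and use integrin heterodimers such as α4β1, α4β7 (which binds MAdCAM-1 in the gut) and αEβ7 (which binds E-cadherin on epithelium) to enter and stay in tissues.

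Library depth ranged from 27414450 to 43784910 reads on genes. The label CD4+ T cells held in the data, since all 8 T-cell markers were detected in all groups and their summed level lay between 2643 and 2921 CPM in every library, where CPM is the number of reads on a gene scaled to a common library size. That steady sum held opposite movements, since with CMA in WT T cells 5 of the 8 were called lower and 2 higher. Of all genes tested, 37.4% were called lower and 33.0% higher in that comparison. Cd3e fell from 252 to 160 CPM and Cd3g from 179 to 137 CPM, log2 differences of -0.66 and -0.39. The 2 called higher were Cd247, from 178 to 248 CPM, and Cd4, from 435 to 498 CPM, log2 differences of 0.48 and 0.19. In STINGgt/gt T cells none of the 8 was called with CMA by edgeR, beside 0.398% of all genes called higher and 0.920% called lower. Cd4 had group means of 435 to 540 CPM and Cd8a of 5.43 to 22.8 CPM. Markers of B cells were present at a lower level that differed between the groups. Their sum over 6 genes was 253 to 266 CPM in WT T cells with DMSO, 350 to 378 CPM in WT T cells with CMA, 115 to 122 CPM in the STINGgt/gt libraries with DMSO and 114 to 115 CPM in those with CMA. B cells also express Ccr7, Cd44, Foxo1, Klf2, S1pr1 and Itga4, and the part of B-cell RNA in the results below was not tested. In bulk RNA, fewer cells of a type cannot be told apart from less RNA per cell. The study reports that CMA overnight led to apoptosis of WT but not of STINGgt/gt T cells, and the part of cell death in the results was not tested.

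With CMA, all 9 genes were called as changed in WT T cells. The call of Itgae, at 14 to 31 reads per WT library, was lost in 3 of 19 alternatives. Ccr7 and Itga4 rose about equally, by 4.02-fold and 3.99-fold, and Klf3 rose by 3.66-fold. Klf2 rose by 1.84-fold, Cd44 by 1.68-fold, Itgae by 1.67-fold, S1pr1 by 1.35-fold and Foxo1 by 1.13-fold, while Itgb7 was the only gene of the 9 that fell, by 2.52-fold. By the quasi-likelihood test of edgeR with adjustment after Benjamini and Hochberg, 8 genes were called higher, where 33.0% of all genes tested were, and 1 was called lower, where 37.4% of all genes were. For none of the 9 did the 3 libraries with CMA overlap the 3 with DMSO, which was also so for 71.1% of all genes tested. The median log2 difference of the 9 genes was 0.75, beside -0.04 for all genes tested. Most genes responded in this comparison, so a call alone does not set a gene apart, and sizes are given for each gene.

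In STINGgt/gt T cells, none of the 9 genes passed the same test with CMA. Among all genes tested, 0.398% were called higher and 0.920% were called lower there, that is 55 and 127 genes, and these numbers ranged from 14 to 180 and from 41 to 289 when each library was left out in turn. Before adjustment, p was under 0.05 for 4 of the 9, higher for Ccr7, Klf3 and Itga4 and lower for Itgae. The same p was under 0.05 with a higher level for 5.94% and with a lower level for 7.02% of all genes tested. For 3 of the 9 (Ccr7, Klf3 and Itgae) the libraries of the 2 groups did not overlap, beside 23.1% of all genes. The median log2 difference was -0.02, beside 0.00 for all genes. The 0 is a count under 1 model. With no filter on low counts, or with only the STINGgt/gt libraries in the fit, 2 genes were called (Klf3 and Itga4), with the replicate number as a block 1 gene was called (Itga4) but with a block from the library names none was, and without WT DMSO replicate 2 in the shared model 1 gene was called (Klf3). DESeq2 and limma-voom called none.

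The difference of the CMA effect between the genotypes was itself tested as an interaction. All 9 genes passed, 8 with a more positive effect in WT T cells, where 27.2% of all genes had one, and 1 (Itgb7) with a more negative effect, where 31.6% did. Between the groups with DMSO, the genotypes differed in 6 of the 9 genes. S1pr1 and Foxo1 were higher in WT T cells, where 22.9% of all genes were, and Klf2, Klf3, Cd44 and Itga4 were lower, where 19.8% were. Ccr7, Itgb7 and Itgae did not pass that test. With CMA, 8 genes were higher in WT than in STINGgt/gt T cells, where 37.0% of all genes were, and Itgb7 was lower, where 36.5% were. The comparisons share groups of libraries and are not independent of each other.

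**Figure D1:**
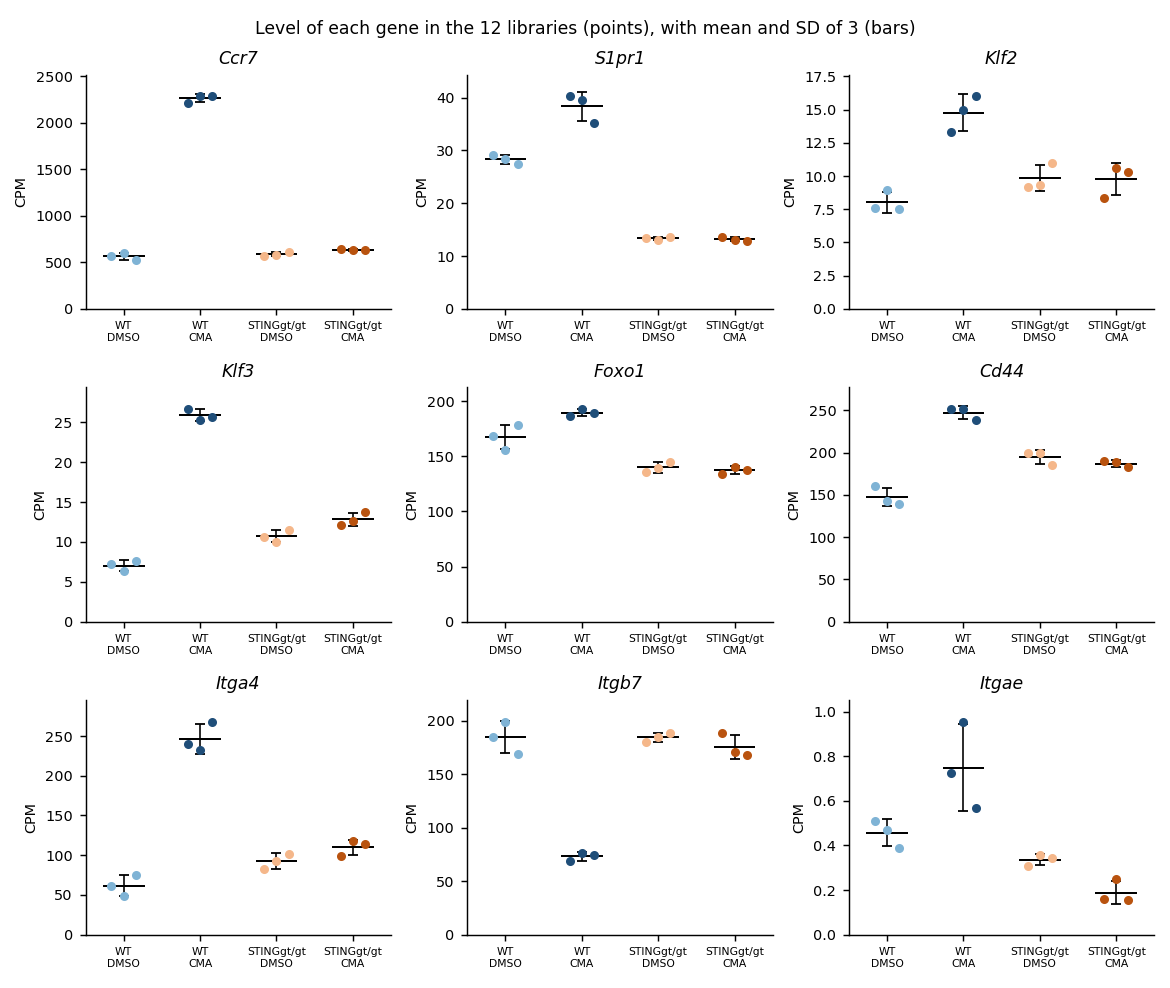
Level of each of the 9 genes in CPM (linear axis from 0) in the 12 libraries, with points for libraries, horizontal bars for means and error bars for the SD of 3 libraries. The WT libraries with CMA stand above all other libraries for 8 genes and below all others for Itgb7, whose values there are 68.6 to 76.4 CPM.

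Ccr7 (ENSMUSG00000037944, GRCm38 chr11:99144196-99155077, minus strand) encodes the receptor that guides T cells into lymph nodes. It measured 567, 599 and 524 CPM in WT T cells with DMSO and 2215, 2287 and 2288 CPM with CMA. STINGgt/gt T cells had 569, 576 and 608 CPM with DMSO and 645, 629 and 628 CPM with CMA. The 3 WT libraries with CMA lay far above all other libraries, and the other 3 groups lay close together. The log2 difference with CMA was 2.01 (SE 0.049, adjusted p = 3.57e-15, edgeR) in WT T cells and 0.12 (SE 0.048, 95% confidence interval 0.02 to 0.22, adjusted p = 0.292, edgeR) in STINGgt/gt T cells. With DMSO the genotypes overlapped and differed by -0.05 (adjusted p = 0.398, edgeR). With CMA they differed by 1.84 (adjusted p = 6.89e-15, edgeR). By size the rise ranked 468th among the log2 differences of the 13811 genes tested in WT T cells, counted from the most positive.

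S1pr1 (ENSMUSG00000045092, chr3:115710433-115715055, minus strand) encodes the receptor for exit from lymph nodes. Its levels were 29.2, 28.4 and 27.5 CPM in WT T cells with DMSO and 40.3, 39.5 and 35.3 CPM with CMA. STINGgt/gt T cells had 13.3, 13.1 and 13.7 CPM with DMSO and 13.6, 13.03 and 12.9 CPM with CMA. Every WT library lay above every STINGgt/gt library, with either treatment. WT T cells with DMSO exceeded STINGgt/gt T cells with DMSO by a log2 value of 1.08 (SE 0.060, adjusted p = 5.82e-10, edgeR). CMA added 0.44 (SE 0.056, adjusted p = 2.73e-06, edgeR) in WT T cells and -0.02 (SE 0.063, 95% confidence interval -0.15 to 0.11, adjusted p = 0.924, edgeR) in STINGgt/gt T cells. Ccr7 and S1pr1 thus both rose with CMA in WT T cells, but the ratio of Ccr7 to S1pr1 also rose. Expressed as CPM per kilobase of exon, the ratio was 30.6 ± 1.68 (SD, n = 3) with DMSO and 91.2 ± 7.87 with CMA, and 67.3 ± 1.53 and 74.1 ± 0.993 in STINGgt/gt T cells. CD69 binds S1PR1 and takes it from the cell surface. The ratio of Cd69 to S1pr1 per kilobase was 1.73 ± 0.138 in WT T cells with DMSO and 2.63 ± 0.270 with CMA, against 5.04 ± 0.179 and 5.47 ± 0.294 in STINGgt/gt T cells. These ratios are described without a test.

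Klf2 (ENSMUSG00000055148, chr8:72319033-72321656, plus strand), a transcription factor of quiescence and trafficking, was expressed at a low level. It measured 7.61, 8.92 and 7.53 CPM in WT T cells with DMSO and 13.3, 15.0 and 16.0 CPM with CMA. The STINGgt/gt values were 9.20, 9.36 and 11.0 CPM with DMSO and 8.36, 10.6 and 10.3 CPM with CMA. The WT libraries with CMA were the highest, and both STINGgt/gt groups overlapped. The log2 difference with CMA was 0.88 (SE 0.11, adjusted p = 1.62e-06, edgeR) in WT T cells and -0.01 (SE 0.11, 95% confidence interval -0.23 to 0.22, adjusted p = 0.989, edgeR) in STINGgt/gt T cells. With DMSO, WT T cells had less Klf2 than STINGgt/gt T cells by a log2 value of -0.30 (SE 0.11, adjusted p = 0.0408, edgeR). That call was lost without WT DMSO replicate 1 (adjusted p = 0.107), without WT DMSO replicate 3 (adjusted p = 0.0962) or without STINGgt/gt DMSO replicate 3 (adjusted p = 0.164).

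Klf3 (ENSMUSG00000029178, chr5:64803523-64830129, plus strand) encodes a relative of KLF2 that is known mainly as a repressor. It measured 7.17, 6.34 and 7.61 CPM in WT T cells with DMSO and 26.7, 25.3 and 25.7 CPM with CMA. The STINGgt/gt libraries gave 10.6, 9.99 and 11.5 CPM with DMSO and 12.1, 12.6 and 13.7 CPM with CMA. The 4 groups did not overlap at any step of their order, from WT with DMSO through STINGgt/gt with DMSO and STINGgt/gt with CMA to WT with CMA. In WT T cells CMA raised Klf3 by a log2 value of 1.87 (SE 0.078, adjusted p = 2.41e-12, edgeR). In STINGgt/gt T cells the value was 0.26 (SE 0.076, 95% confidence interval 0.10 to 0.42, adjusted p = 0.124, edgeR), and its adjusted p ranged from 0.0412 to 0.399 over the alternatives. With DMSO the genotypes differed by -0.60 (SE 0.084, adjusted p = 2.61e-05, edgeR), lower in WT, and with CMA by 1.02 (SE 0.071, adjusted p = 1.31e-09, edgeR), higher in WT. The ratio of Klf3 to Klf2 per kilobase was 0.146 ± 0.0258 (SD, n = 3) in WT T cells with DMSO and 0.290 ± 0.0348 with CMA. The STINGgt/gt ratios were 0.179 ± 0.00954 and 0.217 ± 0.0219. Klf3 shares 404 exon bases with Gm20033 on the opposite strand, a gene with 37 counts over all 12 libraries.

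Foxo1 (ENSMUSG00000044167, chr3:52268337-52350109, plus strand) encodes the factor that links PI3K-AKT signalling to the homing genes. Of the 9 genes it changed least with CMA in WT T cells. It measured 168, 156 and 178 CPM in WT T cells with DMSO and 187, 193 and 189 CPM with CMA. The values without functional STING were 136, 139 and 145 CPM with DMSO and 134, 141 and 138 CPM with CMA. All WT libraries lay above all STINGgt/gt libraries, and the step with CMA in WT T cells was small. The log2 difference with CMA was 0.18 (SE 0.048, adjusted p = 0.00381, edgeR) in WT T cells and -0.03 (SE 0.049, 95% confidence interval -0.13 to 0.08, adjusted p = 0.875, edgeR) in STINGgt/gt T cells. These effects differed by 0.20 (SE 0.069, adjusted p = 0.0186, edgeR), and without WT CMA replicate 2 that call was lost (adjusted p = 0.0506). The genotypes differed by 0.26 (SE 0.049, adjusted p = 0.000396, edgeR) with DMSO. FOXO1 is controlled largely by phosphorylation and export from the nucleus, which mRNA does not report.

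Cd44 (ENSMUSG00000005087, chr2:102811141-102901665, minus strand) encodes a receptor that is low on naive T cells and high on activated and memory T cells. Naive T cells were sorted before the expansion, and elsewhere in the study low CD44 was the gate for such cells, so the levels here are those reached after activation in culture. Cd44 measured 160, 143 and 140 CPM in WT T cells with DMSO and 252, 252 and 239 CPM with CMA. Cd44 in STINGgt/gt T cells stood at 200, 199 and 185 CPM with DMSO and 190, 189 and 183 CPM with CMA. WT T cells with DMSO were the lowest and WT T cells with CMA the highest, with both STINGgt/gt groups between them and overlapping each other. CMA raised Cd44 by a log2 value of 0.75 (SE 0.053, adjusted p = 1.99e-09, edgeR) in WT T cells, with -0.06 (SE 0.052, 95% confidence interval -0.17 to 0.05, adjusted p = 0.700, edgeR) in STINGgt/gt T cells. The difference between the genotypes turned from -0.40 (SE 0.053, adjusted p = 1.36e-05, edgeR) with DMSO to 0.40 (SE 0.052, adjusted p = 2.69e-06, edgeR) with CMA. Cd44 is counted as 1 gene with 9 annotated transcripts, so standard and variant isoforms were not separated.

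The 3 integrin genes moved in different ways. Itga4 (ENSMUSG00000027009, chr2:79255426-79333123, plus strand) encodes α4, which pairs with β1 or β7. It measured 61.6, 48.1 and 75.3 CPM in WT T cells with DMSO and 240, 232 and 268 CPM with CMA. STINGgt/gt T cells had 82.2, 92.8 and 102 CPM with DMSO and 99.1, 117 and 114 CPM with CMA. The rise in WT T cells was several times the spread between libraries, while both STINGgt/gt groups overlapped. CMA raised Itga4 by a log2 value of 1.99 (SE 0.12, adjusted p = 3.02e-10, edgeR) in WT T cells. Without functional STING the value was 0.26 (SE 0.12, 95% confidence interval 0.01 to 0.50, adjusted p = 0.373, edgeR), and its adjusted p ranged from 0.00168 to 0.722 over the alternatives. With DMSO, Itga4 was lower in WT T cells by -0.58 (SE 0.12, adjusted p = 0.00106, edgeR). Itga4 shares 1124 exon bases, 8.04% of its exons, with Cerkl on the opposite strand. The library kit keeps the strand, the strand setting of the counting is not given in the sources used here, and Cerkl had 959 counts over all 12 libraries.

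Itgb7 (ENSMUSG00000001281, chr15:102215995-102231935, minus strand) encodes β7, the partner of both α4 and αE. It measured 185, 199 and 169 CPM in WT T cells with DMSO and 68.6, 76.4 and 74.8 CPM with CMA. The STINGgt/gt values were 180, 185 and 189 CPM with DMSO and 188, 170 and 168 CPM with CMA. The 3 WT libraries with CMA were far below the other 9, which overlapped across their groups. The log2 difference with CMA was -1.33 (SE 0.063, adjusted p = 1.17e-11, edgeR) in WT T cells and -0.07 (SE 0.060, 95% confidence interval -0.20 to 0.06, adjusted p = 0.675, edgeR) in STINGgt/gt T cells. With DMSO the 95% confidence interval of the genotype difference was -0.13 to 0.13 (adjusted p = 0.998, edgeR). Counted from the most negative log2 difference with CMA in WT T cells, Itgb7 ranked 645th among all genes tested.

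Itgae (ENSMUSG00000005947, chr11:73090583-73147446, plus strand) encodes αE (CD103), a chain of T cells in epithelia and of some regulatory T cells, and it was close to absent. Its raw counts were 14, 14 and 16 reads in WT T cells with DMSO and 26, 31 and 18 reads with CMA. STINGgt/gt libraries held 12, 13 and 11 reads with DMSO and 6, 11 and 6 reads with CMA. As levels these were 0.390 to 0.510, 0.567 to 0.956, 0.309 to 0.356 and 0.156 to 0.249 CPM in the same order, and no neighbouring groups overlapped. The log2 difference was 0.74 (SE 0.25, adjusted p = 0.0141, edgeR) in WT T cells, and it lost its call with DESeq2 (adjusted p = 0.0700), without WT DMSO replicate 3 (adjusted p = 0.0675) and without WT CMA replicate 2 (adjusted p = 0.114). The value for STINGgt/gt T cells was -0.80 (SE 0.33, 95% confidence interval -1.51 to -0.09, adjusted p = 0.330, edgeR). The effects differed by 1.54 (SE 0.42, adjusted p = 0.00464, edgeR). At 6 to 31 reads per library the sizes are loose, and Haspin, a gene nested within Itgae on the opposite strand, shares no exon base with it.

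**Figure D2:**
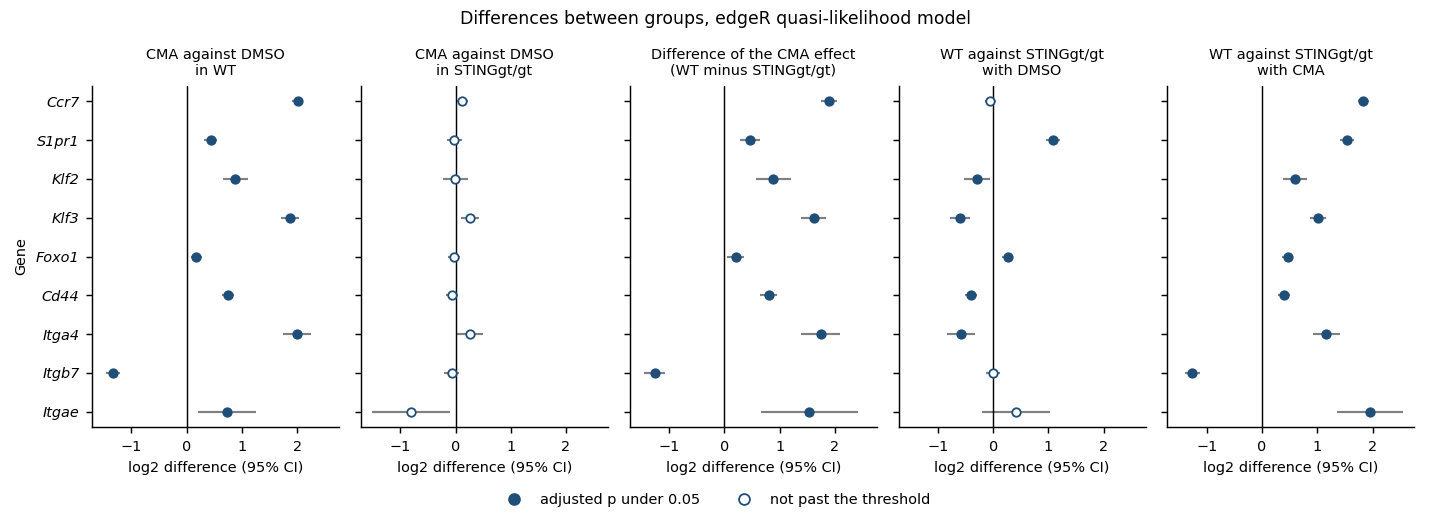
Log2 differences of the 9 genes in 5 comparisons, with 95% confidence intervals as lines and filled points for an adjusted p under 0.05 in edgeR. All 9 genes are filled for CMA in WT and none for CMA in STINGgt/gt, and with DMSO S1pr1 lies at 1.08 while Klf3 and Itga4 lie at -0.60 and -0.58.

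Because α4 and β7 act as a pair, their genes were also set against each other within each library, as CPM per kilobase. In WT T cells the ratio of Itga4 to Itgb7 was 0.0659, 0.0478 and 0.0882 with DMSO and 0.693, 0.602 and 0.711 with CMA. Within STINGgt/gt libraries it was 0.0905, 0.0994 and 0.107 with DMSO and 0.104, 0.136 and 0.134 with CMA. The means in WT T cells were 0.0673 ± 0.0202 (SD, n = 3) and 0.669 ± 0.0586, while the STINGgt/gt groups overlapped. The alternative partner Itgb1, chosen for this comparison with its values known, had a log2 difference of -0.11 (adjusted p = 0.0796, edgeR) with CMA in WT T cells. The ratio of Itga4 to Itgb1 was 0.0925 ± 0.0141 with DMSO and 0.401 ± 0.0267 with CMA in WT T cells, and that of Itgb1 to Itgb7 was 0.716 ± 0.109 and 1.67 ± 0.107. The corresponding STINGgt/gt ratios of Itga4 to Itgb1 were 0.122 ± 0.0194 and 0.147 ± 0.0133, and that of Itgb1 to Itgb7 was 0.821 ± 0.0619 and 0.846 ± 0.0496. Among WT libraries with CMA, transcripts of β1 thus exceeded those of β7 per kilobase, and in the other 3 groups they did not. Ratios between genes depend on the exon lengths used and say nothing of the amount of assembled heterodimer.

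**Figure D3:**
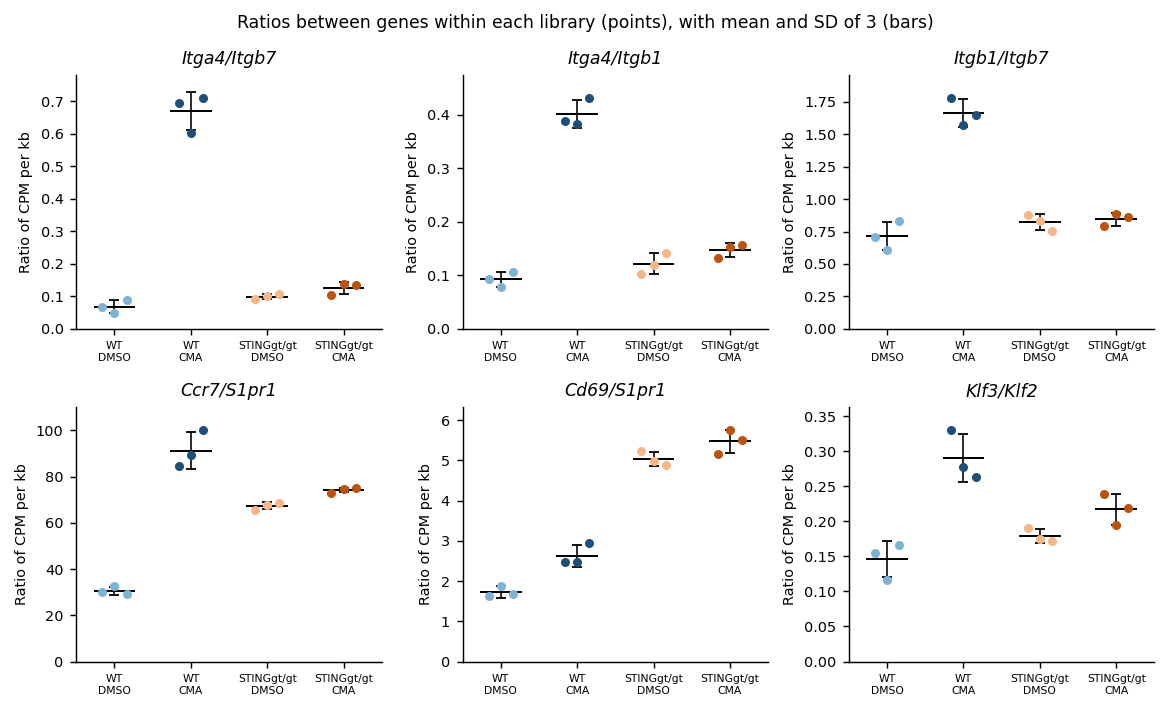
Ratios between genes of the homing programme within each library, computed from CPM per kilobase of exon, with points for libraries and bars for the mean and SD of 3 libraries (linear axes from 0). The ratio of Itga4 to Itgb7 is 0.602 to 0.711 in WT T cells with CMA and at most 0.136 in the other libraries, while the ratio of Cd69 to S1pr1 separates the genotypes.

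The promoters of Itga4 and Itgb7 are shown because these partner genes moved in opposite directions with CMA. They are the RefSeq sequences of GRCm38.p6 just before the start of each gene, chr2:79255176-79255425 (plus strand, 250 bases) for Itga4 and chr15:102231945-102232185 (minus strand, 241 bases) for Itgb7, each 5′ to 3′ on the strand of the gene. Capitals mark the letters CCACCC on either strand, the CACCC box that Krüppel-like factors can bind.
Itga4: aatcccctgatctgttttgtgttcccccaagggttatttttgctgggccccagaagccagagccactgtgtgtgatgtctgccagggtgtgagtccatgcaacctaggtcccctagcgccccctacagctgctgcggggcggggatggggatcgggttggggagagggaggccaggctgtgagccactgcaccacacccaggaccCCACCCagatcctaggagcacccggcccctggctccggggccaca
Itgb7: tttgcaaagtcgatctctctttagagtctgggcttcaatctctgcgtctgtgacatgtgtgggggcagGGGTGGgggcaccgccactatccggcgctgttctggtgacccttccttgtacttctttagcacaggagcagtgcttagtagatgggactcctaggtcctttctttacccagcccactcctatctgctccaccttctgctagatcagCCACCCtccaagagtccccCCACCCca
Itga4 held 1 match, with its first base 45 bases before the gene's start, and Itgb7 held 3, of which the farthest was on the reverse strand. The table used held promoters for 6 of the 9 genes, Klf2, Klf3, Foxo1, Cd44, Itgb7 and Itga4. Of these, Klf2, Klf3, Itga4 and Itgb7 had a CCACCC on either strand, as had 28.1% of all 32851 promoters of 250 bases. These windows end at the RefSeq start, and the single Klf2 match lay after the gene start given above for Klf2, so inside the gene as the deposited table has it. The Klf3 matches lay before the deposited start but inside the GENCODE M21 gene. None of the 6 held GTAAACA (a FOXO motif), GGGANTTTC (NF-κB), GAAANNGAA (the interferon-stimulated response element), CCGGAA (ETS) or TATAAA (the TATA box) on either strand. These were present in 3.17%, 0.941%, 7.13%, 12.0% and 12.4% of all promoters. Itga4, which rose, and Itgb7, which fell, both held CCACCC on either strand before their starts in each annotation used.

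Compared per kilobase of exon, the 9 genes covered almost the whole range of expression. Ccr7 was the most abundant in every group, at 285 ± 19.1 CPM per kilobase in WT T cells with DMSO, 1144 ± 21.3 with CMA, and 295 ± 10.7 and 321 ± 4.67 in STINGgt/gt T cells. Among 13680 genes with a length it ranked 123rd with DMSO and 20th with CMA in WT T cells. Itgb7 followed at 66.6 ± 5.42 CPM per kilobase in WT T cells with DMSO, rank 671, and fell to 26.4 ± 1.49 with CMA, rank 2049. Cd44, at 21.8 ± 1.64, and Foxo1, at 19.3 ± 1.29, came next with DMSO, then S1pr1 at 9.31 ± 0.280. Itga4, at 4.41 ± 0.974, and Klf2, at 4.34 ± 0.423, had means within their SD of each other. Klf3, at 0.626 ± 0.0573, and Itgae, at 0.0997 ± 0.0133, were the lowest. With CMA, Itga4 moved from rank 7471 to rank 3107 in WT T cells, above S1pr1 in level per kilobase (17.7 ± 1.36 against 12.6 ± 0.890).

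Genes around these 9 were taken from lists of their pathways. Their counts are to be read beside the 33.0% of all genes tested that were higher and the 37.4% that were lower with CMA in WT T cells, and a share near these says nothing particular about a list. Of 21 genes of lymph node entry and adhesion, 18 were tested, and CMA in WT T cells raised 8, lowered 8 and left 2 without a call (median log2 difference -0.04, the same as for all genes). Itgal, which encodes the α chain of LFA-1, was the most abundant and rose from 528 to 818 CPM, a log2 difference of 0.63 (adjusted p = 1.08e-09, edgeR). Itgb2, which encodes the β chain of LFA-1 and was named with its values known, went the other way. Its log2 difference was -0.58 (adjusted p = 3.68e-09, edgeR). Apbb1ip, which encodes the RAP1 effector RIAM, fell the most, by 0.96 on the log2 scale, from 90.4 to 46.6 CPM. Cdh1, the E-cadherin gene, had the largest rise, 2.33, at mean levels of 0.259 and 1.24 CPM. Among STINGgt/gt T cells 1 of the 18 genes was called lower with CMA by edgeR and none higher, beside 0.920% and 0.398% of all genes. DESeq2 called 2 of the 18. An unadjusted p was under 0.05 for 6 of the 18 with edgeR, beside 5.94% of all genes with a higher and 7.02% with a lower level.

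Of 16 genes for the production and sensing of S1P, 14 were tested, and 6 rose, 4 fell and 4 had no call with CMA in WT T cells (median 0.07, beside -0.04 for all genes). Cd69 had the largest rise, from 105 ± 8.52 to 214 ± 6.44 CPM (log2 difference 1.03). Rgs1, which encodes a brake on G protein signalling from chemoattractant receptors, had the largest fall, from 263 to 147 CPM, a log2 difference of -0.84. Gna13, the most abundant, was at 505 and 577 CPM. None of the 14 passed in STINGgt/gt T cells with edgeR or DESeq2, and 1 had an unadjusted p under 0.05 with edgeR. Among all genes tested, edgeR called 0.398% higher and 0.920% lower there. The unadjusted p was under 0.05 with a higher level for 5.94% and with a lower level for 7.02%, so these low counts say nothing particular about the list.

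Of 23 other integrin chains, 17 were tested, with 4 higher, 10 lower and 3 without a call in WT T cells (median -0.58, beside -0.04 for all genes). Itgav, the αv chain, had the largest rise, from 114 to 246 CPM, and Itga9 the largest fall, from 1.22 to 0.281 CPM. The log2 difference of Itgav was 1.11, beside 1.99 for Itga4, and the gap between them was not tested. With DMSO, 10 of the 17 were higher and 3 lower in WT than in STINGgt/gt T cells (median 0.39), where 22.9% of all genes were higher and 19.8% lower (median -0.0018). Without functional STING, 1 of the 17 was lower with CMA and none higher, beside 0.920% and 0.398% of all genes. An unadjusted p was under 0.05 for 2 of the 17 with edgeR, beside 5.94% of all genes with a higher and 7.02% with a lower level.

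Of 15 other Krüppel-like factors, 12 were tested, and 6 rose, 1 fell and 5 had no call in WT T cells (median 0.07, beside -0.04 for all genes). Klf6, the most abundant, rose from 184 to 500 CPM. Klf8 rose the most, from 4.57 to 96.5 CPM, a log2 difference of 4.40 (adjusted p = 8.34e-17, edgeR), and Klf10 was the gene that fell, from 10.2 to 8.14 CPM. Of 18 FOXO relatives and PI3K-AKT regulators, 17 were tested, with 7 higher, 5 lower and 5 without a call (median 0.08, beside the same -0.04). Sgk1, which encodes a kinase that phosphorylates FOXO proteins, had the largest fall, from 8.78 to 3.83 CPM. Pik3cd, the most abundant, was at 515 and 544 CPM, with a log2 difference of 0.08 that did not pass (adjusted p = 0.14, edgeR). Neither list had a call in STINGgt/gt T cells with edgeR or DESeq2, and with edgeR an unadjusted p was under 0.05 for 0 of the Krüppel-like factors and 1 of the FOXO list. Beside these stand 0.398% of all genes called higher and 0.920% called lower by edgeR. The shares with an unadjusted p under 0.05 were 5.94% higher and 7.02% lower.

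All 14 other genes of the naive state were tested, and 11 rose, 2 fell and 1 had no call with CMA in WT T cells (median 0.44, beside -0.04 for all genes). Satb1, a chromatin organiser and the most abundant of them, measured 958 ± 91.1 CPM with DMSO and 1295 ± 25.2 CPM with CMA in WT T cells, and 418 ± 9.003 and 414 ± 2.89 CPM in STINGgt/gt T cells. Actn1 had the largest rise, from 157 to 402 CPM. Igfbp4 had the largest fall, from 233 to 89.1 CPM. With CMA in STINGgt/gt T cells 3 genes of the list were called lower by edgeR and none higher. Among all genes tested 0.920% were lower and 0.398% higher there. An unadjusted p was under 0.05 for 8 of the 14, where it was for 5.94% of all genes with a higher and 7.02% with a lower level. Igfbp4 was among the 3 genes called lower, from 92.4 to 74.1 CPM (log2 difference -0.32). Il7r, which encodes the IL-7 receptor and was singled out with its values known, was also among them, and it rose by 1.16 in WT T cells and fell by 0.42 in STINGgt/gt T cells on the log2 scale. Of 15 ligands and partners of CD44, 10 were tested, with 4 higher, 4 lower and 2 without a call in WT T cells (median -0.02, beside -0.04 for all genes). Lgals9, encoding galectin-9, rose from 94.6 to 218 CPM, and Spp1, encoding osteopontin, fell from 24.0 to 1.72 CPM, while Msn, encoding the linker moesin, was at 862 and 1031 CPM. None of the 10 passed in STINGgt/gt T cells with edgeR or DESeq2, and 0 had an unadjusted p under 0.05 with edgeR. These counts are to be read beside the same shares of all genes, 0.398% and 0.920% called and 5.94% and 7.02% before adjustment.

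**Figure D4:**
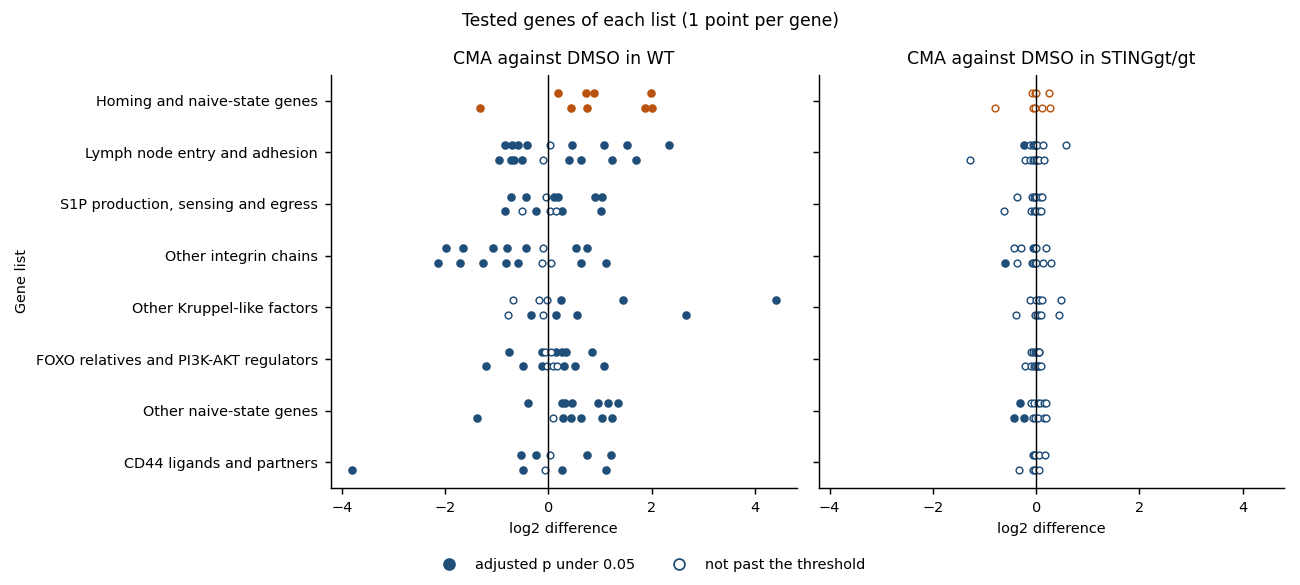
Log2 differences with CMA of the 9 homing and naive-state genes (orange, first row) and of the tested genes of 7 pathway lists (blue), in WT on the left and STINGgt/gt on the right, with filled points for an adjusted p under 0.05. In WT the lists spread to both sides of 0, from Spp1 at -3.80 to Klf8 at 4.40, and in STINGgt/gt filled points are rare.

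For each of the 9 genes, the genes with the most similar pattern over the 12 libraries were sought among 8766 genes with a mean of at least 10 CPM. The nearest to Ccr7 were Gadd45b (Pearson's r = 0.999 of log2 CPM) and Pik3r5 (0.998), and the nearest to S1pr1 were Rnf19b (0.998) and Lamc1 (0.997). Klf2 was most like 4833420G17Rik (0.968) and Gng12 (0.957), Klf3 like Kif13b (0.996) and Gbp7 (0.994), and Foxo1 like Rbl2 (0.990) and Lpp (0.989). Cd44 was most like Pofut1 (0.980) and Nlrc5 (0.978), Itgae like C78339 (0.958) and Gata3 (0.952), Itgb7 like Bub3 (0.998) and Agpat3 (0.996), and Itga4 like Hivep1 (0.995). The 12 libraries fall into 4 groups, so these values mostly compare group means and are a description only.

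Markers of further cell types moved with the same groups. Over 7 myeloid markers the summed level was 81.5 to 89.1 CPM in WT T cells with DMSO and 157 to 166 CPM with CMA, of which Cybb gave 40.7 and 103 CPM, and it was 50.5 to 53.4 CPM in STINGgt/gt T cells. Of the 6 myeloid markers tested, 2 were higher with CMA in WT T cells (Cybb and Cst3) and 2 were lower, Lyz2 from 3.25 to 1.16 CPM and Fcgr3 from 1.03 to 0.539 CPM. Over 6 dendritic-cell markers it was 18.0 to 21.05 and 69.5 to 76.4 CPM in WT T cells, nearly all from Zbtb46 and Flt3, and 11.5 to 12.96 CPM in STINGgt/gt T cells. The other tested marker of that list, Itgax, named like Cst3, Lyz2 and Fcgr3 after the values were seen, fell with CMA in WT T cells from 1.23 to 0.387 CPM. Zbtb46 rose there from 8.25 to 55.5 CPM and Flt3 from 9.69 to 16.6 CPM. Of the dendritic-cell markers that were not tested, Siglech was at 0 in both WT groups. Xcr1 and Clec9a did not exceed 0.0105 CPM in any group mean. Markers of CD8 T cells and natural killer cells summed to 58.3 to 63.2 and 41.1 to 44.0 CPM in WT T cells and to 24.7 to 26.3 CPM in STINGgt/gt T cells, with Cd8b1 the most abundant. Regulatory T-cell markers summed to 2555 to 2717 and 2746 to 2856 CPM in WT T cells and to 1812 to 1880 CPM in STINGgt/gt T cells, mostly from Il2ra, which activated T cells also express, while Foxp3 was at 1.31 to 1.45 CPM. Markers of endothelium and stroma summed to 52.0 to 52.2 CPM in WT T cells with DMSO and 27.8 to 33.9 CPM with CMA. Their sum was 44.8 to 49.5 CPM in STINGgt/gt T cells, and Col3a1 was at 0 in all groups. Nearly all of it came from Pecam1, with means of 50.1 and 28.7 CPM in WT T cells. Cdh5, named after its values were seen, did not exceed 0.0457 CPM in any group mean. Erythroid and platelet markers summed to 1.46 to 1.95 and 2.96 to 3.44 CPM in WT T cells, led by Hbb-bs. In STINGgt/gt T cells these markers summed to 0.109 to 0.541 CPM, led by Pf4. The part of any such cells in the levels of the 9 genes was not tested.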

How the data were processed

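RNA sequencing of 12 libraries of CD4+ T cells (4 groups of 3) was analysed from the deposited files. CMA was used at 125 μg/ml. The authors deposited raw read counts per Ensembl gene, made without normalization, and a log2 expression table of 11921 genes, each value of which is the count plus 0.5, scaled by a factor of its library and put on the log2 scale. The submitters' processing notes name cutadapt 1.3, STAR 2.4.0f1, HTSeq 0.6.1, RSEM 1.2.16 and GRCm38. The strand setting of the counting is not given in the sources used here. Alignments that were not unique (27.8% to 30.3% of entries) were counted on no gene and stayed out of library sizes. They made up 29.6% to 30.3% in WT libraries with DMSO, 27.8% to 27.9% with CMA and 28.1% to 29.0% in STINGgt/gt libraries. Reads on no annotated feature made up 4.86% to 5.47%, 6.79% to 7.16% and 5.98% to 6.54% in the same order. The part of these shares in the results was not tested. No replicate pair agreed within sampling noise (chi-square per degree of freedom 2.63 to 29.9). Pairs of WT libraries with DMSO stood apart at 9.98 to 29.9, while all other pairs were at 2.63 to 6.82.

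Counts were fitted with edgeR 4.0.16 (R 4.3.3, glmQLFit and glmQLFTest, TMM, filterByExpr by group) in 1 model of the 4 groups without a block. The threshold was a Benjamini-Hochberg adjusted p of 0.05 over 13811 genes. CPM are TMM-scaled. Levels per kilobase used merged exon lengths of GENCODE M21 (GRCm38), available for 13680 tested genes. Positions are those of the deposited table, except Itgae, which is not listed there and has its GENCODE M21 position. Promoters came from RefSeq, and 250 bases before each start were searched on both strands. The models were tested on simulated data. The 9 genes, the pathway lists and the marker lists were chosen with earlier results of these data known. Named beside the 9 genes are, in each pathway list, the most abundant gene and the genes with the largest called rise and fall in WT, for each of the 9 the 2 genes of highest correlation over the libraries, T-cell markers and the most abundant marker of each other cell type. A few of the genes picked this way are not reported here. Alternatives were library-size scaling, DESeq2 1.42.0, limma-voom (limma 3.58.1), limma on the deposited log2 table, a minimum of 10 counts throughout or no filter at all, fits of the compared groups alone, replicate blocks and leaving out each library. For the pathway lists only library-size scaling, DESeq2 and no filter were run.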

Additional observations from a re-analysis of the deposited data

Results flagged for a closer look

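For all 9 homing and naive-state genes the CMA effect was unlike in the 2 genotypes by a test of the difference itself (the interaction in edgeR's quasi-likelihood model, Benjamini-Hochberg adjusted p under 0.05). On the log2 scale, WT minus STINGgt/gt, the difference was 1.89 for Ccr7, 1.74 for Itga4, 1.61 for Klf3, 1.54 for Itgae, 0.89 for Klf2, 0.80 for Cd44, 0.46 for S1pr1, 0.20 for Foxo1 and -1.26 for Itgb7. Beside these stands the background of that test, in which 27.2% of all genes had a more positive and 31.6% a more negative effect in WT T cells. Itgae rests on 6 to 31 reads per library.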

How the results depend on the processing

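In WT T cells with CMA, 8 to 9 of the 9 genes were called under every alternative, as they were in the interaction and in WT against STINGgt/gt with CMA, and 5 to 6 were called for WT against STINGgt/gt with DMSO. No called difference changed its sign. In STINGgt/gt T cells with CMA the count of 0 became 2 with no filter, 2 with only the 2 groups compared and 1 with the replicate block, and it was 0 to 1 when each library was left out. With no filter the log2 differences there were 0.27 for Klf3 (adjusted p = 0.0469) and 0.27 for Itga4 (adjusted p = 0.00168, edgeR), close to the main values of 0.26. Over all genes this comparison had 55 higher and 127 lower calls in the model reported, 123 and 200 with DESeq2, 176 and 257 with no filter, 268 and 388 with only the 2 groups, 130 and 233 with the replicate block, and 12 and 31 with the block by library name. The first digits of the library names pair the libraries as the replicate numbers do, except for STINGgt/gt replicate 2, whose DMSO and CMA libraries differ. Leaving out any 1 STINGgt/gt library brought these calls to between 14 and 31 higher and 41 and 72 lower, while they were 180 and 276 without WT DMSO replicate 2 and 169 and 289 without WT DMSO replicate 3. The replicate block left all 9 genes called in WT T cells and in the interaction. Replicate numbers were not used as pairs in the model reported, since the study names only a t-test and no block. Deviations of same-numbered libraries correlated by 0.0019 to 0.132, all positive but low. WT replicate 1 correlated less with its own number than with another, while WT replicates 2 and 3 correlated best with their own. In STINGgt/gt T cells each library correlated best with its own number. These values do not settle whether the libraries are paired. No paired analysis was possible because the genotypes are different animals, for the comparisons between genotypes. The fit with only the 2 groups was not run for the interaction. Itgae could not be tested on the deposited log2 table or with at least 10 counts in every library, so the counts called there leave it out. The cause of these changes was not tested. The 3 libraries of a group limit the precision, as do the low counts of Itgae.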
